A study of Mus musculus with 8 samples.

Results

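The MHC class I antigen presentation pathway and the immunoproteasome were followed through 10 genes in Paneth cells (PCs), the granule-filled secretory cells that sit at the bottom of small intestinal crypts. The genes were taken by name, as the pathway's heavy chains, light chain, peptide transporter, immunoproteasome subunits and main transcriptional activator. All 10 were among the 55414 genes of the count table and all 10 passed the filter on low counts that left 10707 genes for testing. Bulk RNA-seq had been done on 8 libraries, each of PCs sorted by fluorescence-activated cell sorting from the small intestine of 1 C57BL/6J mouse. For 7 days, 4 mice drank purified laboratory (Milli-Q) water and 4 drank Milli-Q water that held 25 mM zinc sulfate. All 8 mice then had an injection of TNF, a cytokine of acute inflammation, with PCs taken 3 hours later, so there was no library without TNF. Age was not given in the sources used here. The question put to the data was how PCs express this pathway, whether zinc changed it under TNF, and whether it followed Cd74, the class II invariant chain, which was already known to be low with zinc in these libraries when it was chosen.

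Almost every nucleated cell shows fragments of its own proteins on MHC class I molecules, so that cytotoxic T cells can recognise infected or transformed cells. The fragments are cut by the proteasome, in which inflammation exchanges the standard catalytic subunits for immunoproteasome subunits. The TAP transporter then pumps them into the endoplasmic reticulum, where tapasin helps to load them onto a heavy chain paired with beta-2 microglobulin. Interferons and TNF are known to raise most of these genes. MHC class II, for which Cd74 is the chaperone, shows ingested proteins to helper T cells and is switched on by a separate activator, Ciita.

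Library totals ran from 10623658 to 15101627 counts, and 3 counts came to 0.179 to 0.369 CPM, a count divided by its library's size in units of 1000000 after edgeR's TMM scaling. PC markers were abundant in every library: 10 genes such as Lyz1 and Defa24 summed to 397492 to 745009 CPM. Defa24 measured 281499 and 217785 CPM in Milli-Q water replicates 3 and 4, against 135313 to 174892 CPM in the others. The 8 goblet cell markers summed to 5341 to 7327 CPM with Milli-Q water and 8327 to 11620 CPM with zinc. Whether the class I counts came from PCs alone was not tested. Of 20 leukocyte markers other than Lyz2, 9 had no count in any library and all 20 together had 0 to 31 counts per library. Zinc replicate 3 stood apart. Its mean log2 CPM over 22 TNF and NF-kB response genes was 1.23, against 4.55 to 5.31 in the other 7 libraries, and over 21 interferon-stimulated genes it was 1.42, against 3.41 to 4.13. Its mean over 8 tested enterocyte markers was 5.18, against 1.42 to 3.21 in the others. The mean log2 CPM of markers of other crypt cells was above the other 7 libraries there as well. It was 9.05 against 7.60 to 8.32 for 8 goblet cell genes and 6.43 against 4.58 to 5.99 for 7 crypt stem cell genes. For enteroendocrine and tuft cells it was 2.17 against -0.93 to 1.12, over only 2 tested genes of 8. Not every marker was high there, as Muc2 of the goblet list had 55.5% and Spdef 83% of the median of the other 7. Crypt stem cell markers were higher with zinc for 7 of 7 tested genes, with a median log2 fold change of 0.96. Of these 4 had an unadjusted p under 0.05 and edgeR called none. Enterocyte markers were higher for 8 of 8 (median 0.72) and goblet cell markers for 5 of 8 (median 0.55). PC markers were lower for 7 of 10 (median -0.28). Of all 10707 tested genes, 5444 were higher, and 1092 had that p in either direction. Without zinc replicate 3, stem cell markers were higher for 6 of 7 (0.78), enterocyte markers for 5 of 8 (0.24) and goblet cell markers for 5 of 8 (0.33). Fold changes and medians are therefore given with and without that library, and the part that cell makeup or exposure to TNF had in them was not tested. In bulk libraries, fewer cells of a type and less RNA per cell cannot be told apart.

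The 10 genes together summed to 1521 to 1693 CPM in the 4 Milli-Q water libraries and held 0.0761 to 0.187% of all counts over the 8 libraries. Of the 10, 7 lie on chromosome 17 (H2-K1, H2-D1, Tap1, Tap2, Tapbp, Psmb8 and Psmb9), B2m lies on chromosome 2, and Psmb10 and Nlrc5 lie on chromosome 8. Levels of different genes were compared as CPM per kb of the canonical transcript, over the 4 Milli-Q water libraries. H2-D1 was highest at 284 ± 20.1 (SD, n = 4), followed by H2-K1 at 229 ± 15.2 and B2m at 229 ± 2.67. Psmb10 at 62.6 ± 5.6 and Tapbp at 57.9 ± 7.96 came next. Psmb8 at 19.9 ± 1.92, Tap2 at 18.9 ± 3.54 and Tap1 at 16.3 ± 1.63 formed a lower set, above Psmb9 at 9.37 ± 1.21. Nlrc5 was lowest, at 0.212 ± 0.116. The neighbours H2-K1 and B2m, Psmb10 and Tapbp, Psmb8 and Tap2, and Tap2 and Tap1 differed by less than the larger of their SDs. On the same scale Cd74 stood at 34.6 ± 12.4, below Tapbp and above Psmb8.

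With zinc, none of the 10 genes passed an adjusted p of 0.05. The quasi-likelihood test of edgeR called 0 of 10707 genes (0%), with 1092 at an unadjusted p under 0.05, and its smallest adjusted p was 0.485. DESeq2 called 4 of 18720 genes (0.0214%) and none of the 10. Cd74 was 1 of the 4, with a log2 fold change of -1.56 and an adjusted p = 0.00317, but it had been picked with that difference known and this is no independent support. All 10 genes had a log2 fold change below 0, with a median of -0.38, where the median over all tested genes was 0.00621. Without zinc replicate 3 the median was -0.10 and 8 of the 10 were below 0. At an unadjusted p under 0.05, 2 of the 10 were lower with zinc (Psmb9 and Nlrc5), against 3.78% of all tested genes. Without zinc replicate 3 there were 3 (Tap1, Psmb9 and Nlrc5), where 867 of 10755 tested genes had that p in either direction. Psmb9 and Nlrc5 were also the 2 whose groups did not overlap over the 8 libraries, against 3.12% of all tested genes that were lower without overlap. Without zinc replicate 3 they were again the 2 of the 10 without overlap, against 3.99% of genes. For Nlrc5 this rests on 0.720 against 0.717 CPM, at 3 to 35 counts per library. Nlrc5 did not pass the filter with Defa genes removed or under the stricter filter.

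**Figure D1:**
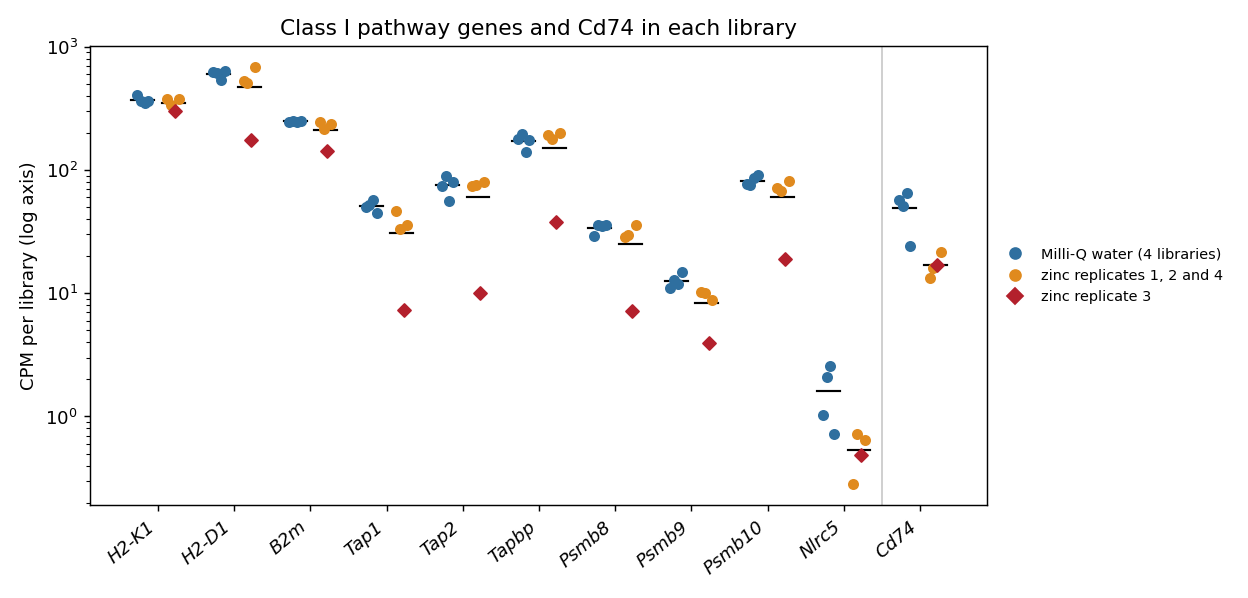
CPM (log axis) of the 10 class I pathway genes and Cd74 in each library, with Milli-Q water libraries at the left and zinc libraries at the right of each gene and a line at each group's mean (n = 4). Zinc replicate 3 (diamonds) was the lowest library for 9 of the 10 genes, whereas for Cd74 it lay between the other zinc libraries.

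The heavy chains hold the peptide at the cell surface, and H2-K1 and H2-D1 are the classical ones of this strain. H2-K1 (ENSMUSG00000061232, chromosome 17, 34214987 to 34219321 in GRCm39) measured 406, 361, 349 and 365 CPM in Milli-Q water libraries 1 to 4. It measured 375, 334, 300 and 378 CPM in zinc libraries 1 to 4. The groups overlapped and zinc replicate 3 was lowest by a small margin. Zinc and Milli-Q water differed by -0.09 on the log2 scale (SE 0.146, edgeR adjusted p = 0.803), and by -0.02 without zinc replicate 3.

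H2-D1 (ENSMUSG00000073411, chromosome 17, 35481691 to 35486475) measured 620, 608, 539 and 636 CPM with Milli-Q water. With zinc it measured 529, 507, 174 and 687 CPM. Zinc replicate 3 had 28.6% of the median of the other 7 libraries, while zinc replicate 4 was the highest of all 8. On the log2 scale H2-D1 differed by -0.34 (SE 0.331, edgeR adjusted p = 0.669) and by -0.06 without zinc replicate 3. The ratio of H2-D1 to H2-K1 counts was 1.41 to 1.82 in 7 libraries and 0.579 in zinc replicate 3, so that this library was the only one of the 8 with fewer counts for H2-D1 than for H2-K1. Of the runs of 75 bases in their transcripts, 1.55% in H2-K1 and 6.85% in H2-D1 occur in another gene as well, mostly H2-D1 and H2-Q1 respectively, and the sources used here do not say how such reads were counted.

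B2m, the light chain shared by all class I molecules (ENSMUSG00000060802, chromosome 2, 121977957 to 121983594), was the steadiest of the 10 among the Milli-Q water libraries. It measured 247, 251, 245 and 250 CPM there, and 247, 216, 143 and 235 CPM with zinc. Only zinc libraries 2, 3 and 4 lay below the Milli-Q water range. For B2m the log2 difference was -0.24 (SE 0.181, edgeR adjusted p = 0.595) and -0.09 without zinc replicate 3.

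Tap1 and Tap2 are the subunits of the peptide transporter. Tap1 (ENSMUSG00000037321, chromosome 17, 34405996 to 34416199) measured 49.7, 51.8, 56.6 and 44.4 CPM with Milli-Q water and 46.3, 32.9, 7.37 and 36.0 CPM with zinc. Zinc replicate 1 lay within the Milli-Q water range and the other 3 zinc libraries lay below it. The log2 fold change of Tap1 was -0.73 (SE 0.408, edgeR adjusted p = 0.516) and -0.40 (SE 0.143, edgeR adjusted p = 0.563) without zinc replicate 3. Its partner Tap2 (ENSMUSG00000024339, chromosome 17, 34422501 to 34435829) measured 73.8, 89.9, 56.4 and 79.7 CPM with Milli-Q water. With zinc Tap2 measured 74.1, 76.0, 9.96 and 79.9 CPM, so that 3 zinc libraries lay inside the Milli-Q water range and 1 stood far below. Its log2 fold change was -0.32 (SE 0.481, edgeR adjusted p = 0.791) and 0.03 without zinc replicate 3. Tapbp, which encodes tapasin (ENSMUSG00000024308, chromosome 17, 34134873 to 34148267), was also far lower in that library alone. It measured 180, 196, 140 and 174 CPM with Milli-Q water and 191, 177, 38.1 and 200 CPM with zinc, where replicate 4 lay above the Milli-Q water range. Over all libraries this was a log2 difference of -0.19 (SE 0.404, edgeR adjusted p = 0.859), and 0.14 without zinc replicate 3. Tapbp shares 923 exon bases with Zbtb22 on the same strand, and Tap1 shares 743 exon bases with Psmb9 on the opposite strand.

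The immunoproteasome subunits Psmb8, Psmb9 and Psmb10 replace Psmb5, Psmb6 and Psmb7 of the standard proteasome. Psmb8 (ENSMUSG00000024338, chromosome 17, 34416690 to 34420428) measured 28.9, 35.5, 35.1 and 35.7 CPM with Milli-Q water and 28.4, 29.6, 7.16 and 35.5 CPM with zinc. Zinc replicates 2 and 4 lay within the Milli-Q water range and zinc replicate 1 just below it, and the log2 difference was -0.43 (SE 0.369, edgeR adjusted p = 0.630), or -0.11 without zinc replicate 3. Psmb9 (ENSMUSG00000096727, chromosome 17, 34400960 to 34406738) measured 11.1, 12.7, 11.9 and 15.0 CPM with Milli-Q water. With zinc it measured 10.3, 10.1, 3.93 and 8.87 CPM, and every zinc library lay below every Milli-Q water library. The log2 fold change of Psmb9 was -0.61 (SE 0.271, edgeR adjusted p = 0.485) and -0.37 (SE 0.162, edgeR adjusted p = 0.601) without zinc replicate 3. Psmb10 (ENSMUSG00000031897, chromosome 8, 106662362 to 106665077) measured 76.4, 75.7, 85.7 and 90.8 CPM with Milli-Q water and 71.4, 67.9, 19.1 and 81.5 CPM with zinc. Here zinc libraries 1, 2 and 3 lay below the Milli-Q water range and zinc replicate 4 within it. The log2 difference for Psmb10 was -0.45 (SE 0.349, edgeR adjusted p = 0.599) and -0.15 without zinc replicate 3.

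The standard subunits did not share the low values of zinc replicate 3. In that library Psmb5 had 82.7%, Psmb6 96.9% and Psmb7 101% of the median of the other 7 libraries, whereas Psmb8 had 20.4%, Psmb9 35.3% and Psmb10 25%. The ratio of Psmb10 to Psmb7 counts was 3.08 to 3.63 in 7 libraries and 0.866 in zinc replicate 3. Psmb7 shares 46.8% of its exon bases with Nek6 on the opposite strand, and the strand setting of the counts is not given. The ratio of Psmb8 to Psmb5 was 1.89 to 3.73 in 7 libraries and 0.767 in zinc replicate 3, although 38% of the 75-base runs of Psmb5 occur in another gene too. That of Psmb9 to Psmb6 was 0.203 to 0.369 with Milli-Q water, 0.235 to 0.262 in zinc libraries 1, 2 and 4 and 0.103 in zinc replicate 3. Apart from zinc replicate 3, the zinc ratios of all 3 pairs lay inside the Milli-Q water range. The log2 fold changes of the standard subunits were -0.38 (SE 0.224, edgeR adjusted p = 0.524) for Psmb5, -0.21 (SE 0.192, edgeR adjusted p = 0.652) for Psmb6 and -0.19 (SE 0.139, edgeR adjusted p = 0.589) for Psmb7. They were -0.32, -0.19 and -0.19 without zinc replicate 3.

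Nlrc5 is the activator that drives transcription of class I genes, as Ciita does for class II. It was close to the detection limit in PCs (ENSMUSG00000074151, chromosome 8, 95160984 to 95253900). Milli-Q water libraries 1 to 4 had 15, 35, 21 and 9 counts, or 1.03, 2.08, 2.58 and 0.720 CPM. Zinc libraries 1 to 4 had 3, 10, 7 and 8 counts, or 0.281, 0.717, 0.491 and 0.645 CPM. The groups did not overlap, but the lowest Milli-Q water value and the highest zinc value were 0.720 and 0.717 CPM. On the log2 scale the difference was -1.53 (SE 0.504, edgeR adjusted p = 0.485) and hardly moved without zinc replicate 3, at -1.47. Nlrc5 had the largest difference of the 10 genes and was the only 1 of them whose lowest library was not zinc replicate 3.

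Cd74 (ENSMUSG00000024610, chromosome 18, 60936899 to 60945731) measured 56.7, 51.5, 65.5 and 24.2 CPM with Milli-Q water and 13.2, 16.1, 16.8 and 21.5 CPM with zinc. The groups did not overlap, and zinc replicate 3 lay among the other zinc libraries. Its log2 fold change was -1.55 (SE 0.28) with all libraries and -1.53 without zinc replicate 3, given as a description since Cd74 was picked for it. The class II chains were low with zinc as well, with some overlap. H2-Aa measured 6.36, 5.66, 10.3 and 1.68 CPM with Milli-Q water and 0.562, 1.08, 2.25 and 1.13 CPM with zinc (log2 fold change -2.22, SE 0.54), where only Milli-Q water replicate 4 and zinc replicate 3 crossed. For H2-Ab1 the range was 6.8 to 26.6 CPM with Milli-Q water and 4.12 to 11.8 CPM with zinc (log2 fold change -1.09, SE 0.423), and zinc replicate 3 was the highest zinc library. For H2-Eb1 it was 3.6 to 10.8 CPM with Milli-Q water and 1.05 to 3.51 CPM with zinc (log2 fold change -1.73, SE 0.4). Without zinc replicate 3 the log2 fold changes were -2.64 for H2-Aa, -1.49 for H2-Ab1 and -2.03 for H2-Eb1. Of 9 tested class II genes, Cd74 included, 7 were lower with zinc and edgeR called none. At an unadjusted p under 0.05, 6 of the 9 were lower, against 3.78% of all tested genes. That count and the median of the 9 include Cd74, which was picked for being low with zinc. Neither is independent support. The 2 higher ones were Ctss and Ifi30, which encode a lysosomal protease and a lysosomal thiol reductase, and Ifi30 (log2 fold change 0.51, SE 0.224) had an unadjusted p under 0.05. Ifi30 was highest in zinc replicate 3, and without it was at 0.26 and no longer under that threshold. For these 9 genes the median log2 fold change was -1.22 and moved to -1.53 without zinc replicate 3, whereas the class I median moved from -0.38 to -0.10. None of the 9 class II genes was lowest in zinc replicate 3, where 9 of the 10 class I genes were, against 30% of all tested genes.

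**Figure D2:**
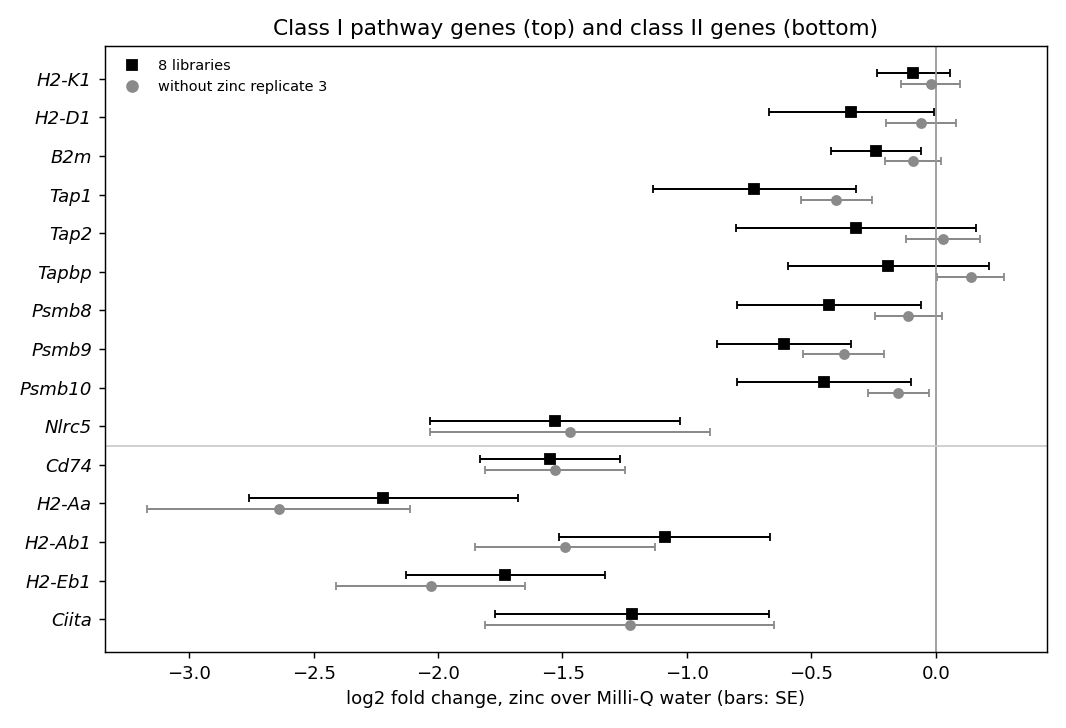
Log2 fold change of zinc over Milli-Q water, with SE, for the 10 class I pathway genes and for Cd74 and 4 other class II genes, over 8 libraries (black squares) and without zinc replicate 3 (grey circles). Without that library 9 class I genes lie between -0.40 and 0.14 and Nlrc5 at -1.47, beside -1.53 for Cd74.

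Counts of each gene were also set against those of Cd74 within each library, which removes library size. With Milli-Q water there were 5.33 to 15.1 H2-K1 counts per Cd74 count, and with zinc 17.6 to 28.4. The groups did not overlap, which held for H2-K1 alone of the 10 genes over all 8 libraries and for 49.7% of the 10706 other tested genes. For H2-D1 the ratio was 8.23 to 26.2 with Milli-Q water and 31.4 to 40 in zinc libraries 1, 2 and 4, with 10.3 in zinc replicate 3. Without zinc replicate 3, 7 of the 10 ratios were higher with zinc in every library than in any Milli-Q water library, against 62.3% of all tested genes, a share not far from that of the 10. The exceptions were Tap1, Psmb9 and Nlrc5. For Nlrc5 the ratio was 0.0181 to 0.0405 with Milli-Q water and 0.0213 to 0.0444 with zinc. The log2 fold changes of Nlrc5 and Cd74 were -1.53 (SE 0.504) and -1.55. With 3 to 35 Nlrc5 counts per library, these values cannot show that both genes changed by the same factor. Since Cd74 enters every ratio and was chosen for being low with zinc, these ratios are a description.

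**Figure D3:**
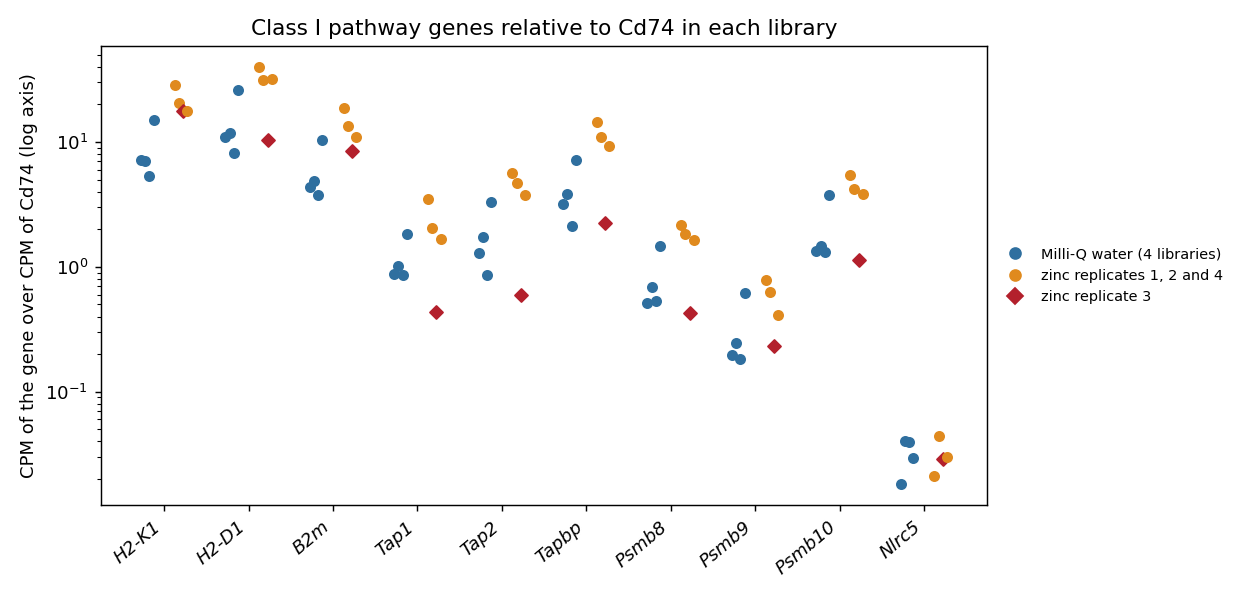
Ratio of each class I pathway gene's CPM to that of Cd74 in the same library (log axis), Milli-Q water libraries at the left and zinc libraries at the right of each gene. H2-K1 runs from 5.33 to 15.1 with Milli-Q water and from 17.6 to 28.4 with zinc, whereas Nlrc5 overlaps between the groups.

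Within zinc replicate 3 the 10 genes stood at unequal shares of their usual level. In that library 7 of the 10 were under 50% of the median of the other 7 libraries, against 11% of all tested genes. Tap2 had 13.1%, Tap1 15.9%, Psmb8 20.4%, Tapbp 21.2%, Psmb10 25%, H2-D1 28.6% and Psmb9 35.3% of that median. B2m had 58.1%, Nlrc5 68.3% and H2-K1 82.2%. Both transporter subunits were thus the lowest of the 10, and H2-K1 was nearest to its level in the other libraries. Tapbpl, a peptide editor related to tapasin, measured 15.6 CPM in zinc replicate 3 and 101 to 143 CPM in the others, or 13.2% of their median. The proteasome activator subunits Psme1 and Psme2 had 46% and 28.7%. Tapbpl, Psme1 and Psme2 were named after their values were seen.

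The other class I heavy chains split in the same way. H2-Q4 measured 42.7 to 49.3 CPM with Milli-Q water, 38.2 to 40.2 CPM in zinc libraries 1, 2 and 4 and 5.68 CPM in zinc replicate 3 (log2 fold change -0.59, SE 0.447, edgeR adjusted p = 0.598), and its log2 fold change was -0.23 without that library. H2-Q7 had 2 counts (0.14 CPM) in zinc replicate 3 and 3.37 to 5.15 CPM in the others. H2-Q6 had 0 counts in zinc replicate 3, where 3 counts would be 0.211 CPM, and 0.717 to 2.09 CPM in the others. Over the 8 libraries together H2-Q6 had 101 counts and H2-Q7 had 387. How much sequence the H2-Q and H2-T genes share with other genes was not measured. By contrast H2-T23, which encodes the nonclassical molecule Qa-1, measured 89.5 CPM in zinc replicate 3 and 57.8 to 91.3 CPM in the others (log2 fold change 0.22, SE 0.168, edgeR adjusted p = 0.601, and 0.14 without zinc replicate 3). H2-Q2 measured 34.2 CPM there and 28.4 to 33.6 CPM in the others, and H2-T22 measured 33.9 CPM against 42.2 to 49.2 CPM. Over the whole list of 16 class Ib and class I-like heavy chains, 9 were tested, 3 were higher and 6 lower with zinc, none was called by edgeR, and the median log2 fold change was -0.12, or -0.08 without zinc replicate 3.

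A stretch of 30 bases near the start of H2-K1 was looked for in the 11 tested class I heavy chains, after these values had been seen, because it holds letters of the kind read by NF-kB and by interferon regulatory factors. The 5 closest copies, read from GRCm39 on each gene's strand, are shown because these 5 genes include the 4 heavy chains that were far below the rest in zinc replicate 3. Capitals mark the exact NF-kB word of H2-K1 at the left, where it is present, and the interferon-response letters at the right.
H2-K1: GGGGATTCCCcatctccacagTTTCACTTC
H2-D1: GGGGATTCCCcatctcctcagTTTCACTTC
H2-Q4: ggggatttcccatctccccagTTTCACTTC
H2-Q6: GGGGATTCCCcatctccccagTTTCACTTC
H2-Q7: tGGGGATTCCCatctccccagTTTCACTTC
The H2-K1 stretch lies at chr17:34219403-34219432 on the minus strand and begins 111 bases before the annotated start. The H2-D1 stretch, at chr17:35481899-35481928 on the plus strand, has 1 mismatch to it and lies 208 bases inside the annotated gene, in bases annotated as exon. The H2-Q4 stretch, at chr17:35598419-35598448, has 2 mismatches and lacks the exact word of H2-K1, but still matches the broader NF-kB letters GGGNNNNNCC. Those of H2-Q6 (chr17:35643653-35643682, 1 mismatch) and H2-Q7 (chr17:35657997-35658026, 5 mismatches, its NF-kB word moved by 1 base) begin 124 and 134 bases before the annotated starts. All 30 bases of the H2-Q4 and H2-Q6 stretches are annotated as exon of another gene. Around the starts of H2-Q2, H2-T3, H2-T22, H2-T23, H2-T24 and H2-M3 the closest stretch had 12 to 15 mismatches. In zinc replicate 3 these 6 genes had 77.4 to 236% of the median of the other 7 libraries. Of these, H2-T3 (at 236%) and H2-T24 had only 113 and 85 counts over the 8 libraries. H2-K1, from which the stretch was taken, was at 82.2% in zinc replicate 3. The genes belong to 1 family and the stretch was picked with these values known, so the split is a description and was not tested. A match of letters is a description and not a measured binding site.

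**Figure D4:**
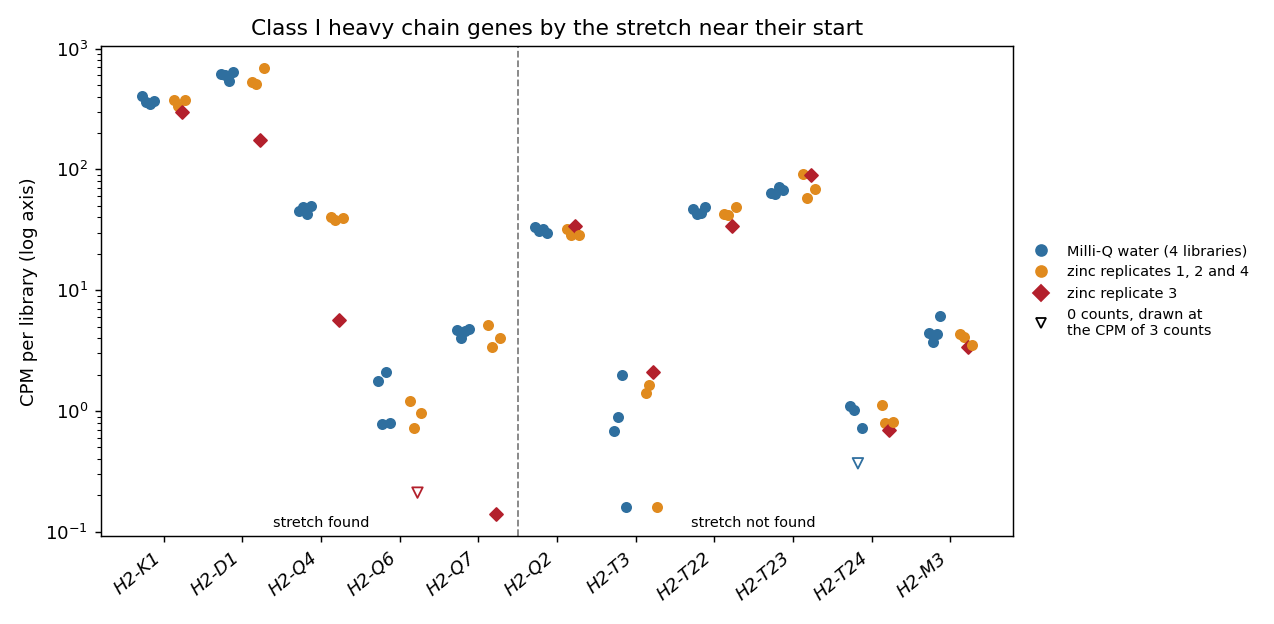
CPM (log axis) of the 11 tested class I heavy chain genes in each library, those with a copy of the 30-base stretch at the left of the dashed line. H2-D1, H2-Q4, H2-Q6 and H2-Q7 are far below the other libraries in zinc replicate 3 (diamonds, or a triangle for 0 counts), whereas H2-K1 and the 6 genes at the right are not.

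In the 250 bases before the start of the canonical transcript, the broader NF-kB letters GGGNNNNNCC on either strand were found for 7 of the 10 genes (H2-K1, Tap1, Tap2, Tapbp, Psmb8, Psmb9 and Nlrc5), against 47.8% of 21627 protein-coding genes. For H2-D1, Tap1, Tapbp, Psmb9 and Nlrc5 all 250 bases are annotated as exon of the same or another gene, and for Tap1 and Tapbp the window lies inside the gene, since the canonical transcript begins downstream of the gene's first base. The interferon-response core GAANNGAAA was found for H2-K1 and Tapbp, against 6.83% of genes, and the letters TTCNNNGAA of a gamma-interferon activated site for H2-D1, against 7.73%. No gene of the 10 held the longer GAAANNGAAA, which 3.32% of genes hold.

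Of 15 tested transcriptional regulators of class I, 11 were lowest in zinc replicate 3, against 30% of all tested genes. Rfxank was highest there. Irf1, an interferon regulatory factor that TNF and interferon raise, measured 141, 156, 169 and 156 CPM with Milli-Q water and 110, 122, 22.9 and 86.0 CPM with zinc, without overlap. Its log2 fold change was -0.87 (SE 0.393, edgeR adjusted p = 0.485) and -0.55 without zinc replicate 3. Irf9, a DNA-binding factor of type I interferon signalling, measured 21.9, 24.8, 19.9 and 25.3 CPM with Milli-Q water and 16.8, 15.3, 7.37 and 14.7 CPM with zinc, also without overlap (log2 fold change -0.77, SE 0.229, edgeR adjusted p = 0.485, and -0.56 without zinc replicate 3). Of the 15, 13 were lower and 2 higher with zinc, none was called by edgeR, and the median log2 fold change of -0.18 moved to -0.07 without that library. The NF-kB subunits Rela and Nfkb1 had 25.0 and 27.7 CPM in zinc replicate 3, against 91.6 to 115 and 87.5 to 128 CPM in the others. Rela, Nfkb1 and Rfxank were named after their values were seen.

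Among 9 interferon receptors and kinases, 8 were lower with zinc and none was called. Of the 9, 8 were lowest in zinc replicate 3, against 30% of all tested genes. Il10rb, a chain of the lambda interferon receptor, measured 37.6 to 46.9 CPM with Milli-Q water and 30.5 to 35.5 CPM with zinc, without overlap (log2 fold change -0.37, SE 0.125, edgeR adjusted p = 0.485, and -0.33 without zinc replicate 3). The type I interferon receptor chain Ifnar2 measured 8.34 to 10.6 CPM with Milli-Q water and 6.18 to 8.06 CPM with zinc (log2 fold change -0.32, SE 0.164, edgeR adjusted p = 0.492, and -0.24 without zinc replicate 3). The median of the 9 was -0.26 with all libraries and -0.01 without zinc replicate 3. Among 11 peptide loading and trimming partners, 7 were lower with zinc, none was called and the median was -0.10. Of the 11, 6 were lowest in zinc replicate 3, against the same 30% of all tested genes. Without that library the direction turned, with 7 higher, 4 lower and a median of 0.02. Uggt1, which checks glycoprotein folding, measured 140 to 183 CPM with Milli-Q water and 186 to 204 CPM with zinc (log2 fold change 0.26, SE 0.147, edgeR adjusted p = 0.517, and 0.28 without zinc replicate 3). Lnpep, an endosomal aminopeptidase, differed by 0.32 on the log2 scale (SE 0.154, edgeR adjusted p = 0.487), and by 0.30 without that library. All 8 proteasome counterparts and activators were lower with zinc, with a median of -0.23. Of the 8, 5 were lowest in zinc replicate 3, again against 30% of all tested genes. Without that library 6 of 8 were lower with a median of -0.17. Pomp, the proteasome assembly chaperone, measured 20.7 to 28.5 CPM with Milli-Q water and 16.2 to 21.9 CPM with zinc (log2 fold change -0.32, SE 0.153, edgeR adjusted p = 0.490, and -0.22 without zinc replicate 3).

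Lists of genes that interferon and TNF are known to raise were read beside the pathway, Irf1 again among them. Of 21 tested interferon-stimulated genes, 19 were lower with zinc and none was called, where 5263 of all 10707 tested genes were lower. At an unadjusted p under 0.05, 6 of the 21 were lower, against 3.78% of all tested genes. The median of the 21 was -0.73, and -0.36 without zinc replicate 3. Oas1a, a sensor of double-stranded RNA, measured 11.1 to 12.3 CPM with Milli-Q water and 5.15, 7.17, 5.96 and 7.82 CPM with zinc. Its log2 fold change was -0.85 (SE 0.17, edgeR adjusted p = 0.485) and -0.80 without zinc replicate 3, so all 4 zinc libraries shared it. Oasl1 measured 4.96 to 9.05 CPM with Milli-Q water and 2.6 to 4.69 CPM with zinc (log2 fold change -0.88, SE 0.266, edgeR adjusted p = 0.485, and -0.75 without zinc replicate 3). All 22 tested TNF and NF-kB genes were below 0, with a median of -0.50. Without zinc replicate 3 the median was -0.16, with 15 of 22 below 0. In that library 21 of the 22 were lowest, against 30% of all tested genes. The exception, Tnfaip2, was highest there, at 6.03 CPM against 1.04 to 3.76 CPM in the others. Its log2 fold change over the 8 libraries was -0.00. Nfkbiz, an inhibitor family member that NF-kB induces, measured 26.8 to 46 CPM with Milli-Q water and 9.09, 18, 7.79 and 28.5 CPM with zinc (log2 fold change -1.30, SE 0.373, edgeR adjusted p = 0.485, and -1.06 without zinc replicate 3). The chemokine Cxcl2 measured 1.68 to 7.25 CPM with Milli-Q water and 0.281, 0.932, 0 and 1.94 CPM with zinc.

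The profile of the 10 genes over the libraries was described by the mean of their standardized log2 CPM. Over 8 libraries, 9 of the 10 genes followed the other 9 with a Pearson r of 0.77 or more, and Nlrc5 with 0.33. Without zinc replicate 3 the values ran from -0.04 for Tapbp to 0.74 for B2m, so the common profile rested on that library. The 5 genes outside the 10 most like the profile over 8 libraries were Gem (r = 1.00), Tnfsf9, Amigo3, H2-Q4 and Prdm4 (r = 0.99 each), each under 50% of the median of the other 7 libraries in zinc replicate 3. Over the 7 other libraries they were Ip6k2 (r = 0.98), Cyb561d1 (0.97), Sh3yl1 and Bcl7b (0.95 each) and Them4 (0.94), and no gene was in both sets. The r of Cd74 with the profile was 0.47 over 8 libraries and 0.54 over 7. These values share the libraries and their depth and carry no test.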

How the data were processed

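The deposited data were raw counts in 1 table of 55414 Ensembl genes by 8 libraries, made by the authors. Per the labels the libraries came from a strand-specific mRNA kit, and the submitters' processing notes name FastQC 0.12.0, STAR 2.7.10a, DESeq2 and the genome mm39. The counter, annotation release, strand setting and treatment of reads with several matches are not given in the sources used here. Identifiers were matched to GENCODE M39 on GRCm39 for symbols, coordinates and lengths. Of these, 54749 matched and 665 did not, with 0.00443% of the counts.

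Zinc and Milli-Q water libraries were compared in the quasi-likelihood test of edgeR 4.0.16 (R 4.3.3, limma 3.58.1) with TMM factors, the default filter (10707 genes, 99.89% of counts) and Benjamini-Hochberg adjustment over all tested genes at 0.05. The biological coefficient of variation was 0.269. Chi-square per degree of freedom was at least 6.37 in all 28 library pairs, and each library counted as 1 replicate. CPM values use TMM-scaled sizes. Counting limits cover counting error only. The scripts were tested on simulated counts.

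The members and lists were chosen with earlier results of these data known. Named were the 10 genes, Cd74, H2-Aa, H2-Ab1, Irf1, Psmb5, Psmb6 and Psmb7, the 2 genes of smallest p in each other pathway list, and the 5 genes most like the profile. Others were named after their values were seen, and 1 gene that the rule names is not reported here. A list is described by counts and medians, with no test. Alternatives were other scaling factors, Defa genes removed, no filter or a stricter one (1 CPM in 4 libraries and 100 counts), DESeq2 1.42.0, limma-voom, a replicate block and libraries left out.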

Additional observations from a re-analysis of the deposited data

Results flagged for a closer look

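Among the 22 groups of 4 libraries searched (Milli-Q water and zinc for each of the 10 class I pathway genes and Cd74), 3 held a library whose gap to its nearest neighbour took up more of the group's range than Dixon's 95% critical value for 4 samples. Chance alone would give about 1.1 if the groups were independent. They share the same libraries, so 3 against 1.1 is no test of an excess. Tap2 measured 9.96 CPM in zinc replicate 3 and 74.1 to 79.9 CPM in the other 3 zinc libraries. Tapbp measured 38.1 CPM in zinc replicate 3 and 177 to 200 CPM in the others. Psmb8 measured 28.9 CPM in Milli-Q water replicate 1 and 35.1 to 35.7 CPM in the others of its group. In zinc replicate 3 the TNF and NF-kB genes, the interferon-stimulated genes and the enterocyte markers stood apart too, and their part in the values of Tap2 and Tapbp was not tested.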

How the results depend on the processing

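The 18 alternatives, 1 of them chosen after seeing the data, gave 250 values, of which 245 kept their direction and their side of the threshold, though not always their size. No alternative called any of the 10 genes. DESeq2 called 4 genes over the whole table where the other alternatives called 0, and Cd74, at -1.56, was 1 of the 4. It tested 18720 genes. With a replicate block the count was 0 too, with 802 genes at an unadjusted p under 0.05 and a median of -0.6 over the 10 genes, and no call changed. Deviations of same-numbered libraries correlated at -0.0275 to 0.0266. This gave no sign of pairing by replicate number, though it cannot show that the mice were unpaired. As single libraries were left out, Tap2 ran from -0.497 to 0.0341 and Tapbp from -0.354 to 0.14, in both cases lowest without zinc replicate 4 and above 0 only without zinc replicate 3. Tapbp turned to 0.0138 with 5 libraries, Milli-Q water 3 and 4 and zinc 3 left out. The median over the 10 genes was lowest at -0.611 when zinc replicate 4 was left out and highest at -0.101 when zinc replicate 3 was, and it was -0.0932 with the 5 libraries and -0.218 in limma-voom with sample weights. Nlrc5 ran from -1.78 to -1.23 over 16 alternatives and was not tested with Defa genes removed or under the stricter filter. Cd74 ran from -1.77 to -1.39. With 9 to 35 counts with Milli-Q water and 3 to 10 with zinc, depth limits what can be said of Nlrc5.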
